A study of Drosophila melanogaster with 3 samples.

Results

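Polycomb and trithorax group genes encode the chromatin proteins that keep developmental genes silent or active through cell divisions. The occupancy of these genes by Pdp1 was described for 35 named genes, of 13945 protein-coding genes on 6 chromosome arms, and 21 of them encode repressors (Polycomb group) and 14 encode activators (trithorax group). All 35 were found in the Ensembl BDGP6 gene models, 34 by symbol and calypso by a synonym. For each gene, the summits of Pdp1 peaks within 500 bp of an annotated transcription start site (TSS), here called promoter summits, and those in the gene body or up to 2000 bp upstream of it, here called body summits, were read from the deposited peak lists together with the authors' signal value for each peak.

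The data are chromatin immunoprecipitation and sequencing (ChIP-seq) with an antibody against GFP in Drosophila melanogaster. The flies (strain Pdp1-MiMIC-GFP) carry an eGFP exon inserted in an intron of the endogenous Pdp1 gene, so that Pdp1 is made as an eGFP fusion. Pdp1 is a DNA-binding protein with a PAR domain and a basic leucine zipper. Whole embryos of mixed sex, 0-24 hours old, gave 3 biological replicates of a single group, so there is no second condition, and the lists of control precipitations were not analysed here. The embryos mix tissues and stages, so a weak peak in all cells and a strong peak in a few cells cannot be told apart.

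Of the dm6 lists used, the thresholded list held 4622 peaks kept by the authors' reproducibility procedure, which were the peaks of the pooled list (27719 peaks) with a signal of at least 101.8. The 3 replicate lists held 30000, 29999 and 30000 peaks on the 6 arms, with median signals of 21.3, 15.1 and 15.2 in replicates 1, 2 and 3. Read numbers were not analysed here, so the depth is unknown. The signal is not scaled between lists, and an SD over replicate lists can include differences of scale.

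Polycomb repressive complex 1 (PRC1) compacts chromatin and ubiquitinates histone H2A, and Polycomb repressive complex 2 (PRC2) methylates histone H3 at lysine 27. The Pho repressive complex (PhoRC) binds DNA at Polycomb response elements in the fly. Trithorax group proteins counteract them as histone methyltransferases of the COMPASS family, as subunits of the Brahma (SWI/SNF) remodelling complex, and as further remodellers and DNA-binding factors.

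The following 101-bp windows of the dm6 genome, centred on thresholded summits, carry the patterns described below. The first is the strongest member summit. The second and the last are the 2 member windows that hold the PAR leucine zipper site TTACGTAA or TTATGTAA on either strand, and the Sfmbt window holds TATCGATA, the DNA replication-related element bound by Dref. The windows of brm and Bap60 share with the first the letters TTTTAAG. Capitals mark these matches, read on either strand.
ph-p chrX:2137283-2137383, minus strand: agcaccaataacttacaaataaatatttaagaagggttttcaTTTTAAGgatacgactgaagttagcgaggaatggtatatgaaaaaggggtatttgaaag
ph-p chrX:2136474-2136574, minus strand: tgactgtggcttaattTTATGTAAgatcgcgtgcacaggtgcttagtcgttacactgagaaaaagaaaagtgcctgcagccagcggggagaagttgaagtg
brm chr3L:15982937-15983037, minus strand: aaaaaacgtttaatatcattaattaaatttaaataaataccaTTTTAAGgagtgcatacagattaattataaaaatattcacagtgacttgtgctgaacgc
Bap60 chrX:13159602-13159702, minus strand: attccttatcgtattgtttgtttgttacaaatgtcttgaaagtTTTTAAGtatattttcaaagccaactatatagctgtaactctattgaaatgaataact
Sfmbt chr2L:13176831-13176931, minus strand: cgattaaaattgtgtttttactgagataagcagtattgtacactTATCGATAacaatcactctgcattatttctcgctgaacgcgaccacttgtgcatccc
Kdm2 chr3R:9055848-9055948, plus strand: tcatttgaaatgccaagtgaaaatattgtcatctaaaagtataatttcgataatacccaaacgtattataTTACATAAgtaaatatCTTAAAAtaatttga

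A promoter summit of the thresholded list was found at 14 of the 35 members (40%), against 20.7% of all protein-coding genes. These were the repressor genes ph-p, Kdm2, Sfmbt, pho, E(z), esc, Su(z)12 and Jarid2 and the activator genes trr, brm, mor, Bap60, kis and Trl. In the 4622 strongest peaks of each replicate list taken alone, 18, 12 and 16 members had a promoter summit in replicates 1, 2 and 3. The same lists gave 21.4%, 18.3% and 20.1% of all genes. The member share averaged 43.8% ± 8.73 over the 3 replicates, against 19.9% ± 1.54 for all genes (SD, n = 3 lists), and it lay above the share of all genes in each list. The count fell when support was asked of the replicates. This demand can only lower a count, so the effect of a single replicate is not separated from it. When a thresholded summit had to be matched within 100 bp among the strongest peaks of both remaining replicates, 9 members stayed without replicate 1 and 9 without replicate 3, against 13.2% and 13.9% of all genes, and 11 members stayed without replicate 2, against 15.4%. With support asked in all 3 replicates, 8 members remained (22.9%), against 12.2% of all genes: ph-p, Sfmbt, E(z), Su(z)12, Jarid2, brm, Bap60 and Trl.

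**Figure D1:**
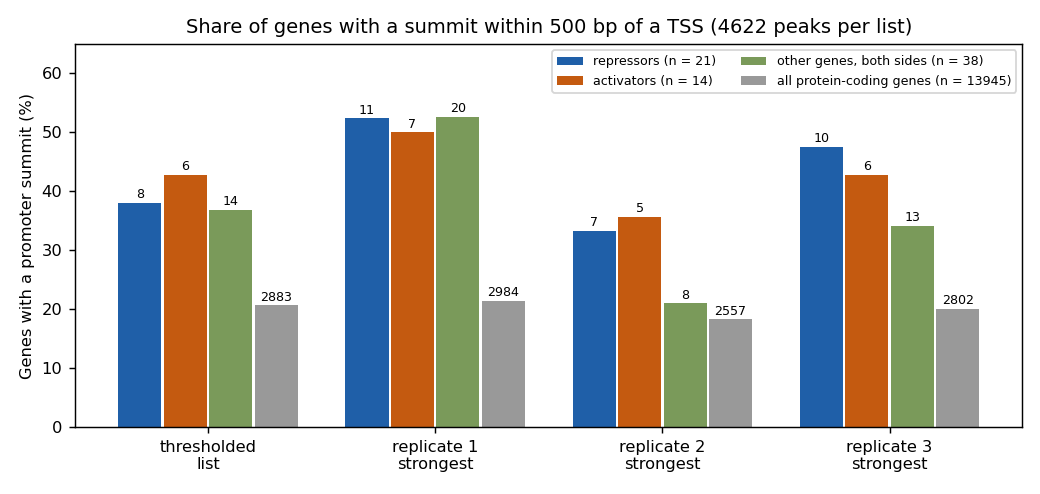
Share of genes, in percent, that have a promoter summit (within 500 bp) in the thresholded list and in the 4622 strongest peaks of each replicate list, for repressors, activators, the other genes of the pathway and all protein-coding genes; numbers above the bars count genes. Repressors and activators lie above the share of all genes in every list, and their order changes from list to list.

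The longer lists brought in more members and more of all other genes. In the whole pooled list 28 members had a promoter summit, against 51.1% of all genes. In the whole lists of replicates 1, 2 and 3 the counts were 31, 17 and 31 members, against 53.7%, 36.7% and 54.2% of all genes. Fewer members were reached in replicate 2 than in the other lists, as was the case for all genes. Counted over the gene body and 2000 bp upstream, 21 members (60%) had a thresholded summit, against 29.8% of all genes, and 33 had one in the pooled list, against 72% of all genes. The members are longer than most genes, with a median length of 7560 bp against 2166 bp, and have a mean of 1.69 annotated TSSs against 1.41, which raises the number of positions a summit can fall in. Within genes of up to 5000 bp, 4 of 14 members (28.6%) had a promoter summit, against 18.1% of all genes. Above 5000 and up to 10000 bp the count was 5 of 10 members (50%), against 28.6%, and above that up to 20000 bp it was 4 of 8 (50%), against 29.0%. Among genes over 20000 bp it was 1 of 3 members, against 27.1%. Body summits lay at 42.9%, 60%, 75% and 100% of members in the same length classes, against 23.5%, 41.9%, 49.8% and 57.8% of all genes. By number of TSSs, 7 of 20 members with 1 TSS (35%) had a promoter summit, against 16.1% of all genes with 1, and 5 of 8 with 2 TSSs (62.5%), against 28.7%. The order turned round at 3 or more TSSs, with 2 of 7 members (28.6%), against 43.9% of all such genes. For body summits the shares in these TSS classes were 55%, 87.5% and 42.9% of members, against 23.4%, 41.4% and 61.3% of all genes.

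In the thresholded list, promoter summits were found at 8 of 21 repressors (38.1%) and 6 of 14 activators (42.9%), against 20.7% of all genes. In the strongest peaks of replicate 1 the shares were 52.4% of repressors and 50% of activators, in replicate 2 33.3% and 35.7%, and in replicate 3 47.6% and 42.9%. All genes stood at 21.4%, 18.3% and 20.1% in these lists. Over the 3 lists repressors averaged 44.4% ± 9.91 and activators 42.9% ± 7.14 (SD, n = 3 lists), a difference smaller than the spread between lists, and neither side was the higher in all 3. Without replicate 1 or without replicate 3, 5 repressors and 4 activators stayed, and 7 repressors (33.3%) and 4 activators (28.6%) stayed without replicate 2, which turns the order of the shares round. The median signal of the strongest thresholded promoter summit per gene was 179 for the repressors that had one and 264 for the activators, with 197 over all such genes. With so few genes, these medians describe the genes named and no more. In the whole pooled list 15 of 21 repressors (71.4%) and 13 of 14 activators (92.9%) had a promoter summit, against 51.1% of all genes. Body summits of the thresholded list lay at 13 repressors (61.9%) and 8 activators (57.1%), against 29.8% of all genes, with 23 summits on each side. Counted in the gene body alone, the order turned round, with 23.8% of repressors and 35.7% of activators.

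**Figure D2:**
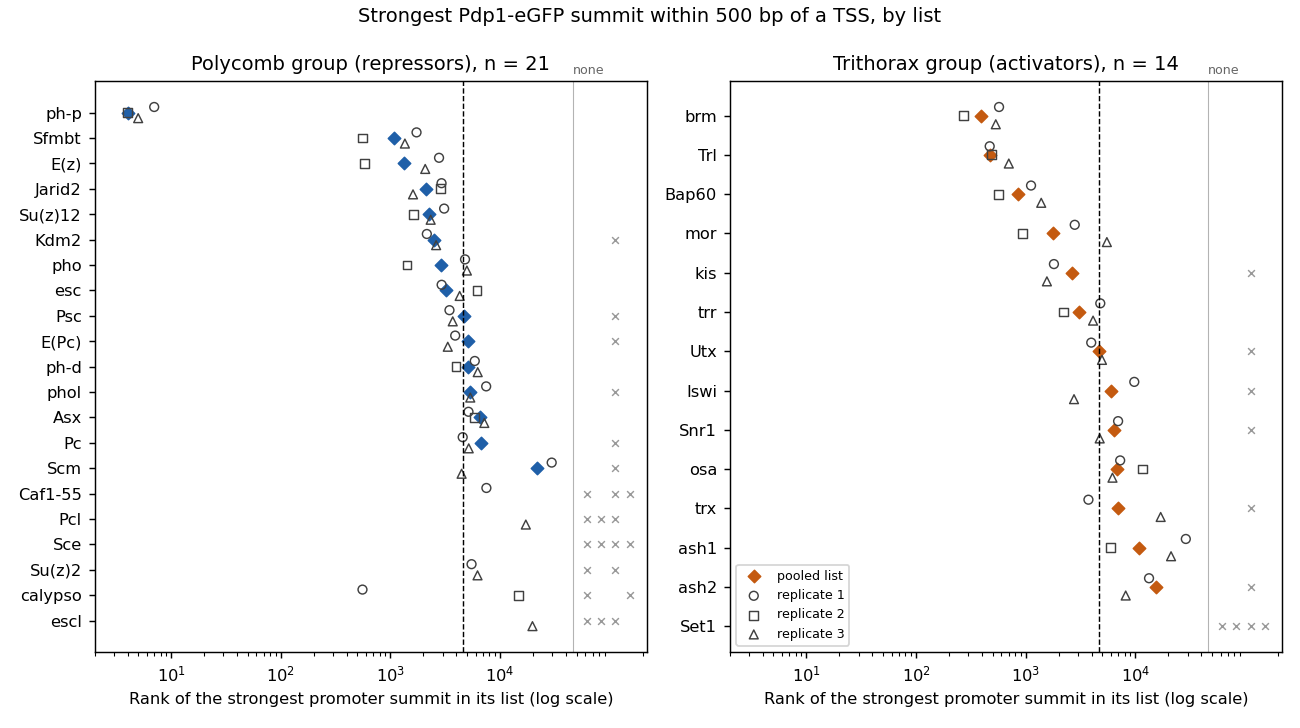
Rank of the strongest promoter summit of each member on a log scale, with repressors at the left and activators at the right; filled diamonds are the pooled list, open symbols the 3 replicates, crosses mark lists without a promoter summit, and the dashed line is rank 4622. Genes are ordered by pooled rank, ph-p stands at ranks 4 to 7 in every list, and Sce and Set1 have a promoter summit in none.

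Among PRC1 genes, 2 of 7 (28.6%) had a thresholded promoter summit, against 20.7% of all genes. The highest member peak of the whole list was at ph-p (FBgn0004861, chrX:2126210-2138371, minus strand), which encodes polyhomeotic proximal, a SAM-domain subunit. This peak, chrX:2137133-2137584, had a pooled signal of 2507, rank 4 of 4622, with its summit in an intron, 478 bp upstream of the closest ph-p TSS. Its signal was 871, 991 and 725 in replicates 1, 2 and 3, where it ranked 7, 4 and 5 (862 ± 134, SD, n = 3). A second promoter peak of ph-p, chrX:2137683-2138103, had a pooled signal of 736 (rank 148) in the 5′ UTR, 415 bp downstream of another TSS, with 278, 272 and 227 in the replicates. The third, chrX:2136319-2136728, was far weaker, at 148 (rank 2851; 65.8, 39.4 and 48.5 in the replicates), and it is the one whose window holds TTATGTAA. The strongest of the 3 holds no PAR site in its window. The ph-p gene also had intronic body summits at 343 and 218, which makes 5 thresholded summits in all, each found in the strongest peaks of all 3 replicates.

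The tandem duplicate of ph-p, ph-d (polyhomeotic distal), differed from it at the promoter. Its thresholded summit, chrX:2123919-2124175, lay 748 bp upstream of its TSS, outside the promoter window, with a pooled signal of 400 (rank 548) and 132, 171 and 97.6 in the replicates. Within 500 bp of a ph-d TSS the highest pooled signal was 94.5, just under the threshold, at a summit with 37.0 in replicate 1, 27.4 in replicate 3 and no match in replicate 2. A further ph-d promoter summit had 74.0 in the pooled list and was found in all 3 replicates (26.1 ± 7.17, SD, n = 3). Sequence shared by the duplicates bears on how reads are placed. Of the strongest ph-p peak, 132 of 452 bp aligned to the region of ph-d at 88.2% identity with a longest identical run of 49 bp, and the summit lay outside that stretch. The second peak aligned over 141 bp at 84.4% with a longest identical run of 20 bp, and its summit lay inside that stretch. How the authors placed reads with several matches is not given in the sources used here, so signals at the duplicates are uncertain in the aligned stretches, and the part of this in the values was not tested.

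Kdm2 (FBgn0037659, chr3R:9052495-9063245), a histone demethylase of a variant PRC1, had a promoter peak at chr3R:9052993-9053402 with a pooled signal of 165 (rank 2471), 93 bp upstream of a TSS. It had 72.4 and 49.8 in replicates 1 and 3 and was absent from the list of replicate 2. Its summit window was the most GC-rich of the member promoter summits, at 66.3%. The strongest Kdm2 peak was intronic, chr3R:9055845-9056018, with a pooled signal of 280 and 94.1, 98.4 and 81.8 in replicates 1, 2 and 3 (91.4 ± 8.58, SD, n = 3). It lay 2607 bp downstream of the TSS, and its window, printed above, holds the PAR site on the reverse strand (TTACATAA). With intronic peaks at 207, 200 and 120, Kdm2 had 5 thresholded summits and 3.92 summits per 10 kb of gene and 2000 bp upstream, against 3.53 at ph-p.

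Other PRC1 genes had no thresholded promoter summit. Psc, a RING-domain subunit, had an intronic peak of 465 (rank 394; 179, 154 and 128 in the replicates) 5062 bp downstream of its TSS, at chr2R:12975464-12975701. At its promoter the pooled signal was 100.7, just under the threshold (rank 4688), with 53.0 in replicate 1, 40.1 in replicate 3 and no peak in replicate 2. Pc, whose chromodomain reads methylated lysine 27, reached 75.2 in the pooled list. Su(z)2, a relative of Psc, had promoter summits of 38.8 and 27.6 in replicates 1 and 3 and none in the pooled list. Sce, the RING ligase that ubiquitinates histone H2A, had no promoter summit in any list.

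Genes of PhoRC and its partner Scm came next, with 2 of 4 (50%), against 20.7% of all genes. Sfmbt (FBgn0032475, chr2L:13169649-13176785), the MBT-domain subunit of PhoRC, had 2 thresholded promoter peaks. The peak chr2L:13176770-13176925 had a pooled signal of 281 (rank 1068), 96 bp upstream of the TSS, and among the replicates it was listed in replicate 2 (132) and had no summit within 100 bp in replicates 1 and 3. The neighbouring peak chr2L:13177027-13177189 had 253, with 82.1, 113 and 74.2 in the replicates (89.7 ± 20.5, SD, n = 3). Its nearest TSS was that of CG5439, so these summits are not assigned to Sfmbt alone. The window of the first Sfmbt peak is the member window with TATCGATA.

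pho (FBgn0002521, chr4:1172469-1181628), a zinc-finger DNA-binding relative of mammalian YY1, had a promoter peak at chr4:1181581-1181990 with a pooled signal of 147, 158 bp upstream of its TSS, and 40.9, 74.3 and 32.7 in the replicates (49.3 ± 22.02, SD, n = 3). Only replicate 2 held this peak among its strongest (rank 1415, against ranks 5062 and 4982 in replicates 1 and 3). A second, chr4:1181786-1182195, had 125, was absent from replicate 2 and was among the strongest peaks of no replicate. Its paralogue phol had no thresholded promoter summit but a far stronger peak upstream, chr3L:9457628-9457979, with a pooled signal of 1077 (rank 59) and 356, 424 and 296 in the replicates (359 ± 64.1, SD, n = 3). That summit lay 1535 bp upstream of phol, inside CG3552 and 96 bp from its TSS. Scm had a pooled promoter signal of 33.2.

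Of the 7 PRC2 genes, 4 (57.1%) had a thresholded promoter summit, against 20.7% of all genes, and each of these 4 had a single one. E(z) (FBgn0000629, chr3L:10634575-10638130), the methyltransferase subunit, had the strongest, chr3L:10637991-10638209, with a pooled signal of 249 (rank 1327), 35 bp downstream of a TSS in the 5′ UTR. Its replicate signals were 61.5, 130 and 57.7 (83.2 ± 40.9, SD, n = 3), with replicate 2 the highest. Jarid2 (FBgn0036004, chr3L:9477038-9486530), an accessory subunit, had 183 at chr3L:9476760-9477169, 73 bp upstream, and 59.4, 43.1 and 67.5 in the replicates; this summit lay exactly on the TSS of Uch-L5. Su(z)12 (FBgn0020887, chr3L:19918242-19923462), a core subunit, had 175 at chr3L:19923201-19923610, 56 bp downstream, with the narrowest spread of the group, 57.4, 67.2 and 53.9 (59.5 ± 6.88, SD, n = 3). esc (FBgn0000588, chr2L:11827204-11829405), the WD-repeat subunit, had 135 at chr2L:11829244-11829653, 44 bp upstream, with 59.3, 22.9 and 36.4 in the replicates (39.6 ± 18.4, SD, n = 3). Its paralogue escl, the histone-binding subunit Caf1-55 and the accessory subunit Pcl had no promoter summit in the pooled list.

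The 2 genes of the Polycomb deubiquitinase (PR-DUB) had none in the thresholded list. calypso, its catalytic subunit, had a summit 517 bp upstream of its TSS, just outside the window, at chr2R:16196775-16196946 with a pooled signal of 332 (rank 800) and 155, 75.5 and 102 in the replicates (111 ± 40.2, SD, n = 3). The nearest TSS was that of CG42837, and in replicate 1 the summit lay within 500 bp of calypso (rank 556), the only replicate whose strongest peaks gave calypso a promoter summit. Asx, the scaffold subunit, reached 76.1 in the pooled list. E(Pc), a subunit of the Tip60 acetyltransferase complex, had 94.7 at the promoter and a peak of 107 further upstream, inside qvr.

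Among activators of the COMPASS family and ash1, 1 of 6 (16.7%) had a thresholded promoter summit, against 20.7% of all genes. trr (FBgn0023518, chrX:1881313-1889950), a methyltransferase of histone H3 lysine 4 at enhancers, had 140 at chrX:1889931-1890340 (rank 3065), 186 bp upstream, with 42.3, 53.1 and 37.4 in the replicates (44.3 ± 7.99, SD, n = 3), and the nearest TSS was that of mRpL16. trx, the methyltransferase that names the group, had 5 thresholded summits, none of them within 500 bp of its TSS. The strongest, chr3R:14283703-14284031, lay in an intron 3018 bp downstream of the TSS with a pooled signal of 570 (rank 262), and its replicate signals of 181, 195 and 203 varied little (193 ± 11.2, SD, n = 3). The others had 154, 136, 130 and 121, and the last lay 1901 bp upstream of trx and 267 bp from the TSS of red. Utx, a demethylase of lysine 27 in the trr complex, stood just under the threshold at its promoter with 100.4. The pooled promoter signals of trx, the methyltransferase ash1 and the shared subunit ash2 were 72.8, 51.3 and 41.1, and Set1, which trimethylates lysine 4, had no promoter summit in any list.

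Brahma complex genes had 3 of 5 (60%), against 20.7% of all genes. brm (FBgn0000212, chr3L:15970082-15982869), the ATPase, had the highest promoter peak of the activators, chr3L:15982826-15983135, with a pooled signal of 465 (rank 395), 118 bp upstream, and 153, 191 and 119 in the replicates (154 ± 36.0, SD, n = 3). A TSS of Arl1 lies within 500 bp of it. Bap60 (FBgn0025463, chrX:13157445-13159508), an accessory subunit, had 322 at chrX:13159546-13159682, with 107, 132 and 73.4 in the replicates (104 ± 29.2, SD, n = 3). That summit was 144 bp upstream of Bap60 and 48 bp from the TSS of CG12096. mor (FBgn0002783, chr3R:15968134-15972913), the core scaffold, had 206 at chr3R:15972854-15973263, 146 bp upstream, with 61.2, 98.0 and 30.3 (63.2 ± 33.9, SD, n = 3). Replicate 3 did not hold this summit among its strongest peaks, and a TSS of Hel89B lies within 500 bp of it. A stronger summit, with 271 (rank 1141), lay 1511 bp upstream of mor, inside Hel89B, and was among the strongest peaks of all 3 replicates. In osa, the ARID-domain subunit, Pdp1 signal lay deep in an intron: chr3R:17704233-17704595, 13949 bp downstream of the TSS, had a pooled signal of 1361 (rank 37) and 542, 447 and 377 in the replicates (455 ± 83.0, SD, n = 3). Snr1, a further core subunit, reached 78.4 at its promoter in the pooled list.

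Trl (FBgn0013263, chr3L:14747929-14761049), which encodes the GAGA factor that binds GA repeats, had 5 thresholded summits, the most of any activator together with trx and kis. The weakest Trl summit, with 109, lay 1305 bp upstream, inside Mgat4a and 326 bp from the TSS of Mgat4a. The strongest, chr3L:14759305-14759750, was intronic, with a pooled signal of 1358 (rank 39) and 528, 449 and 385 in the replicates (454 ± 71.4, SD, n = 3). It lay 1536 bp upstream of the closest Trl TSS, and CG42507, another gene of this locus, has a TSS at the same distance. The promoter peak chr3L:14757062-14757319 had 434 (rank 470), 124 bp downstream in the 5′ UTR, with 166, 141 and 104 (137 ± 30.9, SD, n = 3). kis (FBgn0266557, chr2L:210735-250823), a chromodomain remodeller, had 157 at chr2L:250681-251090, 63 bp upstream, with 80.03 and 68.6 in replicates 1 and 3 and no peak in replicate 2. The strongest kis peak, chr2L:223443-223656, was intronic with 351 and 140, 116 and 97.8 in the replicates. Per 10 kb of gene and 2000 bp upstream the densities were 3.31 summits at Trl, 1.96 at trx and 1.19 at kis. Iswi, the ATPase of the NURF and ACF remodellers, had a pooled promoter signal of 82.1.

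**Figure D3:**
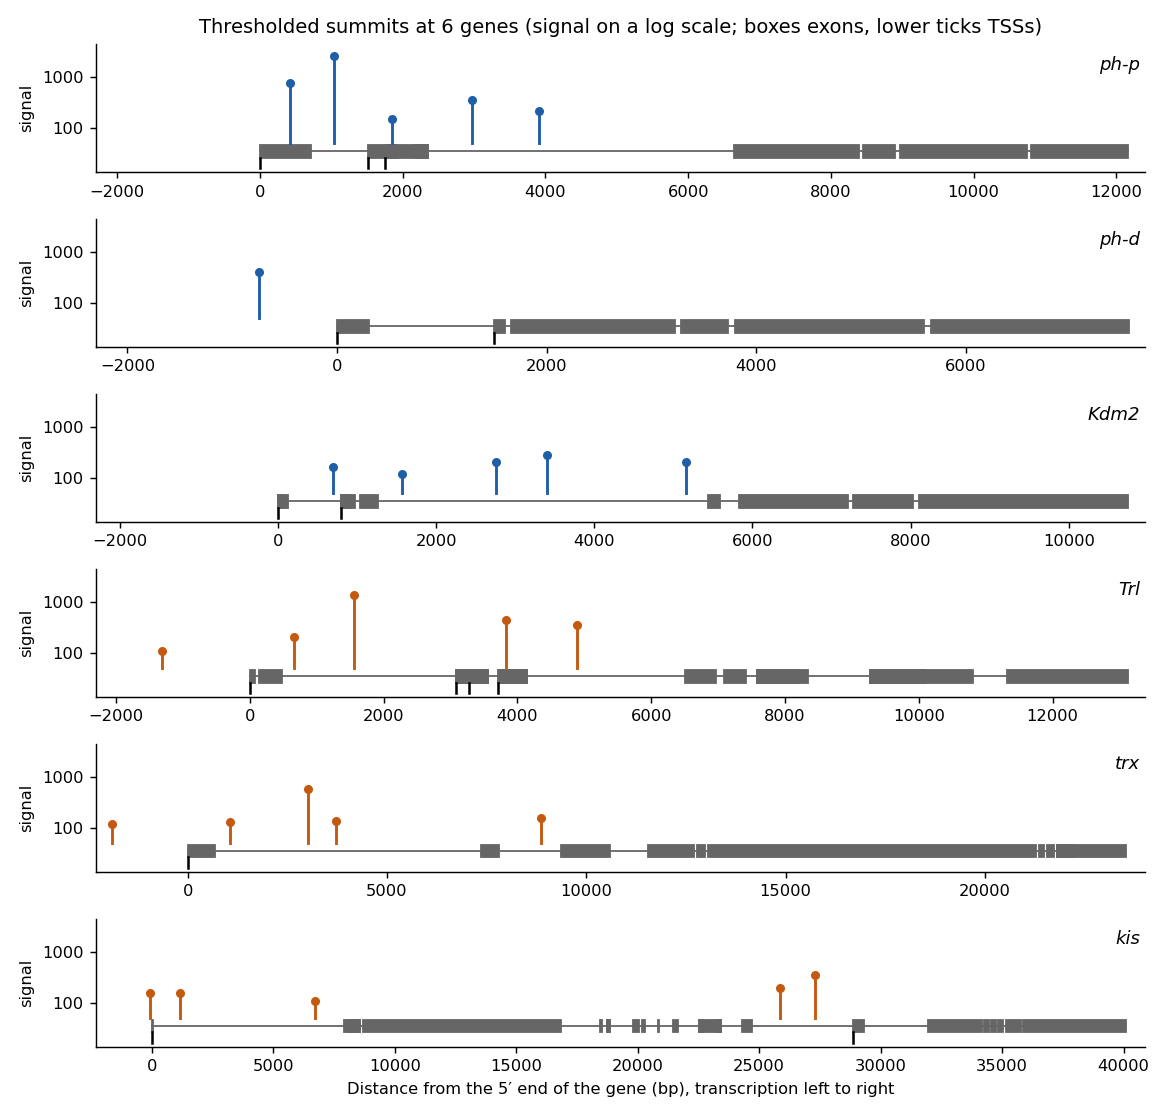
Thresholded summits along ph-p, ph-d, Kdm2, Trl, trx and kis, drawn against the distance in bp from the 5′ end of the gene with transcription to the right; the height is the pooled signal on a log scale, boxes are exons and lower ticks are TSSs. The summits of ph-p crowd into the 5′ part, from the first exon to the long intron, those of trx lie away from its TSS, and ph-d has a lone upstream summit.

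In all, the members had 46 thresholded summits at 21 genes. Of these, 18 were promoter summits and 28 were not, with 21 of the 28 in introns and 7 upstream. No summit fell in coding sequence of its own member gene. Another gene spanned 12 of the 46, and its coding sequence was not checked. Of the 46, 37 had a summit within 100 bp in all 3 whole replicate lists and 28 among the strongest peaks of all 3. Replicate 2 lacked 8 of them, at Kdm2, kis, pho and Trl, and replicates 1 and 3 each lacked the Sfmbt summit of rank 1068. The members with a body summit and no promoter summit were ph-d, Psc, phol, calypso, E(Pc), trx and osa. Neither kind was found at Pc, Su(z)2, Sce, Scm, escl, Caf1-55, Pcl and Asx on the repressor side, nor at ash1, ash2, Set1, Utx, Snr1 and Iswi on the activator side.

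**Figure D4:**
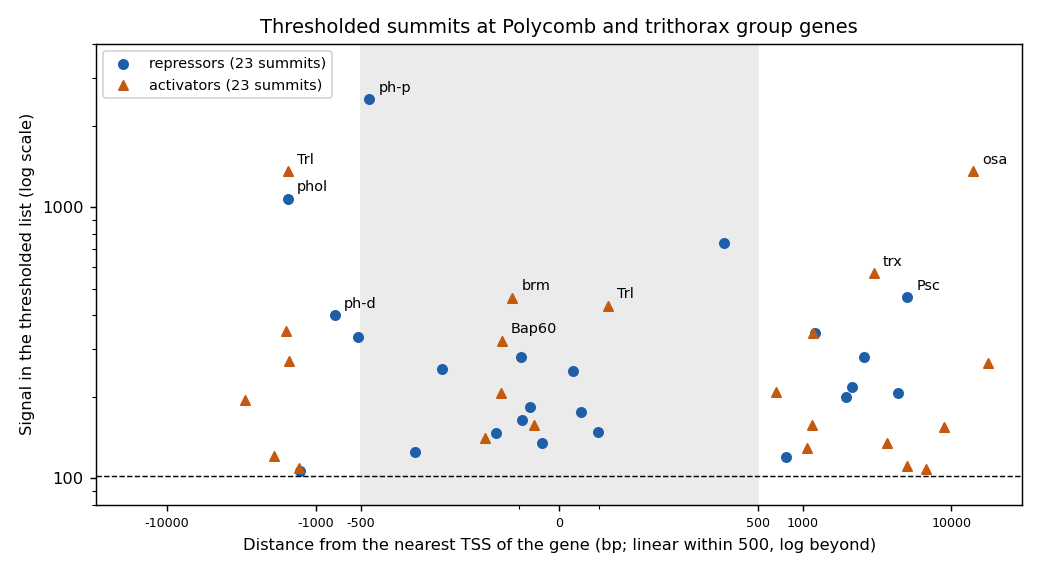
Pooled signal (log scale) of the 46 thresholded member summits against the signed distance from the nearest TSS of the gene in bp (linear within 500 bp, log beyond); circles are repressors and triangles activators, 23 summits each, the grey band is the promoter window and the dashed line the threshold. The highest summits are those of ph-p at the edge of the window and of osa, Trl and phol outside it.

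Many of these promoters are shared with a neighbour. Of the 18 member promoter summits, 9 (50%) also lay within 500 bp of a TSS of another protein-coding gene, against 918 of all 2257 thresholded promoter summits (40.7%). On the repressor side 5 of 12 were shared and on the activator side 4 of 6. Counting only promoter summits with no such neighbour left 6 members (17.1%), namely ph-p, pho, esc, Kdm2, kis and Trl, against 8.61% of all genes. Measured from the closest TSS of the member itself, 13 of the 18 (72.2%) lay upstream, and the median distance of the 18 was 121 bp. For all thresholded promoter summits the distance was taken from the closest TSS of any protein-coding gene. By that measure 84.2% lay upstream, with a median distance of 111 bp. A member summit can lie closer to a neighbour's TSS than to its own, so these values are not a comparison. The GC content of the windows had a median of 37.1%, against 35.6% over all.

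Matches to known motifs were few under the member summits. Within 50 bp of the summit and on both strands, TTACGTAA or TTATGTAA was found at 2 of 46 member summits (4.35%), 1 in ph-p and 1 in Kdm2, against 1.19% of all 4622. TATCGATA was found at 1 (2.17%), in Sfmbt, against 2.23%. GAGAG, the core read by the GAGA factor, was found at 5 (10.9%), in kis, calypso, osa, Kdm2 and E(Pc), against 9.71%. GCCAT, the core read by Pho, was found at 6 (13.0%), in mor, kis, trr, osa and trx, against 15.0%. These genes are all activators. In the whole pooled list GCCAT also stood at summits of repressors, among them promoter summits of phol and Su(z)12. At promoter summits of the thresholded list GCCAT was found at 3 of 6 of activators and 0 of 12 of repressors, against 15.8% of all promoter summits. With so few summits, these counts describe the summits read and no more. GAGAG was found at 0 of the 18 member promoter summits, against 9.22% of all. No member window with the PAR site held any of the other 3 motifs. The letters TTTTAAG were picked after the windows had been read, so their count is a description of those windows. They stood at 9 of 46 member summits (19.6%), in ph-p, brm, Bap60, Sfmbt, trx, Kdm2 and osa, against 6.38% of all thresholded summits, and in 2.62% of windows of the same width 500 bp away. The ph-p and brm windows printed above share the longer run CATTTTAAGGA. This run was read from those 2 windows, and they are themselves among the 3 of the 4622 windows that contain it.

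A further 38 genes of the same pathways, all of them matched, were read in the same way. Of these, 14 (36.8%) had a thresholded promoter summit, 4 of 13 on the Polycomb side and 10 of 25 on the trithorax side, against the 20.7% of all genes. Over the strongest peaks of the replicates the counts were 20, 8 and 13, a mean share of 36.0% ± 15.9 (SD, n = 3 lists), with the lowest share, 21.1%, in replicate 2, where all genes had 18.3%. On the Polycomb side lolal, a BTB-domain partner of the GAGA factor, had the highest pooled promoter signal, 299, with promoter signals of up to 102, 86.3 and 97.8 in the replicates. The DNA-binding protein psq had 196, with up to 67.8 and 72.5 in replicates 1 and 3 and no promoter summit in replicate 2. On the trithorax side the remodeller Chd1 had the highest promoter signal, 324, with up to 89.3, 156 and 70.2 in the replicates, and fs(1)h, a bromodomain protein of the BET family, had 231, with up to 99.8, 56.4 and 57.9. None of these reached the strongest ph-p peak.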

How the data were processed

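Peak lists of Pdp1-eGFP ChIP-seq in 3 replicates of whole embryos were deposited by the authors in the narrowPeak format. Per the deposited listings, relaxed lists were called per replicate and on pooled replicates against a control, and the thresholded list was kept by the irreproducible discovery rate. The deposited signal is the value the authors' peak caller gave each peak, used here to rank and describe peaks within a list. The sources used here name no aligner, peak caller or version. Of the lists, 5 in dm6 coordinates were used. Summits were the peak start plus the deposited offset, written 1-based. TSSs came from Ensembl release 115 and sequence from the RefSeq Release 6 genome. Replicate peaks were matched within 100 bp, and the strongest 4622 peaks of each replicate list were also used. Python 3.11.15, pandas 2.3.3, numpy 2.4.6, biopython 1.88 and matplotlib 3.10.9 were used, and the placement of summits was checked on simulated data.

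The members, the lists and the motifs were chosen with earlier results of these data known, so counts are given beside those of all genes with no test. Described in full are members with a thresholded promoter summit and, on each side, those with the most body summits. Of the other pathway genes, the 2 of each side with the highest promoter signal are named. Nothing in the labels pairs or batches the replicates beyond their numbers.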

Additional observations from a re-analysis of the deposited data

How the results depend on the processing

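Counts of members moved with how many peaks were used and with the support asked of the replicates, and the counts of all genes moved with them. For promoter summits (14 members, 8 repressors, 6 activators, 2883 of all genes), the 2311 strongest thresholded peaks left 9 members, 5 repressors and 1724 genes. Support in all 3 replicates within 100 bp left 8 members, 5 repressors, 3 activators and 1699 genes, and within 200 bp 8, 5, 3 and 1814. The whole pooled list gave 28, 15, 13 and 7128. Support in both remaining replicates, with 1 left out, gave 9 to 11 members, 5 to 7 repressors, 4 activators each time, and 1844 to 2142 genes. A window of 200 bp left 14 members, against 14.8% of all genes, and 1000 bp gave 16, against 23.8%. With 1 TSS per gene 12 members stayed, against 18.6%, and with the nearest TSS belonging to the gene 11, against 15.2%. For body summits (21 members, 13 repressors, 8 activators), the gene body alone gave 10, 5 and 5, with 12.03% of all genes. The pooled list gave 33, 20 and 13, with 72.04% of all genes. Support in both remaining replicates, with 1 left out, gave 17 to 19 members, 10 to 11 repressors and 7 to 8 activators. The share of all genes was then 20.6% without replicate 1, 23.0% without replicate 2 and 21.2% without replicate 3. Of the alternatives run on these counts, 45 stayed within a factor of 1.5 of the main count and 26 did not. On single genes 319 stayed and 66 moved. The order of repressors and activators changed with the setting. Promoter shares were 38.1% and 42.9%, and turned to 47.6% and 42.9% within 1000 bp, 33.3% and 28.6% by nearest TSS or without replicate 2, and 23.8% and 21.4% with support in all 3 replicates at either distance. Body shares were 61.9% and 57.1%, and turned to 23.8% and 35.7% in the gene body alone, 47.6% and 50% in the 2311 strongest peaks, with support in all 3 replicates or without replicate 3, and 52.4% and 57.1% without replicate 1. No paired analysis was possible because the 3 replicates form a single group. Depth is unknown, so a member without a summit is one not detected in these lists.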

Other observations

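Strong thresholded peaks also lay just outside the counted span of members that had none inside it. The peak of rank 2 in the thresholded list, chr3L:19590404-19590832 with a pooled signal of 3410, lay 151 bp beyond the 3′ end of ash1 and 98 bp from the TSS of CG14100. A peak of 2239 (rank 7), chr3R:15229321-15229740, lay 1965 bp downstream of Caf1-55 and 121 bp from the TSS of Art3. A peak of 961 (rank 75), chr3L:21304399-21304756, lay 1574 bp downstream of Pc and 94 bp from the TSS of CG11309. These peaks enter none of the counts of members.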
